A study of Mus musculus with 22 samples.

Results

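The 10 genes described here encode proteins of the adherens and tight junctions that hold endothelial cells together, and they were taken as a fixed set of gene symbols from a table of 24454 gene symbols. All 10 were found in the table. They are the cadherin genes Cdh5 (VE-Cadherin) and Cdh2 (N-cadherin), the immunoglobulin adhesion genes Pecam1 and Esam, the junctional adhesion molecule (JAM) genes F11r (JAM-A), Jam2 and Jam3, the tight junction strand genes Cldn5 (claudin-5) and Ocln (occludin), and Tjp1 (ZO-1), which encodes a scaffold protein. The set was fixed by its symbols and not by a threshold on a measured value, with earlier results of these data known.

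Endothelial cells are joined along their borders by adherens junctions, in which VE-Cadherin molecules of neighbouring cells bind each other and are anchored to actin through catenins, and by tight junctions, in which claudin-5, occludin and JAM proteins are linked to actin through ZO-1. In the aorta of the embryo, some endothelial cells round up, leave the vessel wall and become blood cells. This is called the endothelial to haematopoietic transition (EHT), and the junctions of the leaving cell are taken apart while the wall stays closed.

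Each of the 22 libraries held the RNA of 25 cells, which came from the aorta-gonad-mesonephros (AGM) region of wild-type C57Bl/6 mouse embryos at E9.5, E10 and E11. The cells were sorted with antibodies against VE-Cadherin, CD44 and Kit, so that VE-Cadherin, the protein encoded by Cdh5, was a condition of the sort in all libraries. CD44Neg had 10 libraries (4 from E9.5, 3 from E10, 3 from E11), CD44LowKitNeg had 6 (1, 2 and 3), CD44LowKitPos had 3 (1 from E9.5, 2 from E10) and CD44High had 3, all from E11. CD44Neg cells are VE-Cadherin-positive cells without CD44, CD44LowKitNeg and CD44LowKitPos cells carry low CD44 without or with Kit, and CD44High cells carry high CD44. No stage holds both CD44LowKitPos and CD44High, so stage and population cannot be told apart between them. The date in the labels changes with the stage, so date and stage cannot be told apart either. Nothing in the labels says that the libraries of a group came from separate embryos or litters, and p-values measure the spread between these libraries. In such pooled cells, fewer cells of a type and less RNA per cell cannot be told apart.

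Between 3912350 and 8657546 reads were counted per library. Levels are given as CPM, counts scaled to the size of the library, after a further scaling between libraries (normalized CPM), and the limit that a count of 0 allows, taken as 3 counts, lay between 0.348 and 0.816 normalized CPM per library. Since molecules were not tagged, that limit accounts for counting error alone. Markers of other cell types differed between the populations. The summed level of 6 endothelial markers (Kdr, Tie1, Tek, Flt1, Emcn and Egfl7) was 2618 to 4530.0 normalized CPM in CD44Neg, 2382 to 5364 in CD44LowKitNeg, 618 to 1226 in CD44LowKitPos and 62.9 to 128.7 in CD44High. That of 8 blood markers was 5.84 to 40.2, 4.49 to 263.6, 446 to 1279 and 1038 to 1812. In the 3 CD44High libraries, 7 macrophage markers summed to 3030 to 4385 normalized CPM, with Adgre1 at 150.2 to 251 and C1qb at 260.5 to 814, against 0 to 8.95 in CD44Neg, 0 to 28.9 in CD44LowKitNeg and 150.8 to 228 in CD44LowKitPos. In CD44LowKitPos this was mostly Lyz2 (145 to 212), a gene of myeloid cells, while Adgre1, C1qa, C1qb and C1qc had no count there. Macrophage markers thus accompany every CD44High value below, and Lyz2 every CD44LowKitPos value, and their part in those values was not tested. The summed level of 8 mesenchymal and mural markers did not overlap between CD44Neg (0.465 to 126 normalized CPM) and CD44LowKitNeg (191 to 358), and was 166 to 313 in CD44LowKitPos. In CD44LowKitNeg most of it was Acta2 (76.5 to 289, against 0 to 105 in CD44Neg) and Tagln (15.96 to 65.1, against 0 to 55.1), genes of smooth muscle, whereas Col1a1 had no count in either population. These markers move with the differences of Cdh5, Ocln and Tjp1 between CD44LowKitNeg and CD44Neg, and their part in them was not tested.

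Differences were tested with the quasi-likelihood test of edgeR, adjusted by Benjamini-Hochberg over all genes of a fit, and a gene was called at an adjusted p under 0.01. All 10 genes passed the filter on low counts in each comparison. Between CD44LowKitNeg and CD44Neg, 3 of the 10 were called, all higher in CD44LowKitNeg (Tjp1, Cdh5 and Ocln), where 10.2% of all 11022 genes tested were called and 4.94% were called higher. Between CD44LowKitPos and CD44LowKitNeg, 3 were called lower in CD44LowKitPos (Tjp1, Cdh5 and Cldn5), beside 4.26% of 12949 genes called and 1.71% called lower. CD44LowKitPos and CD44Neg differed in 2 of the 10, with Ocln higher and Cldn5 lower, beside 3.48% of all genes called, 2.08% higher and 1.41% lower. By edgeR, 330 of all genes were higher and 222 lower in CD44LowKitPos than in CD44LowKitNeg, but 429 and 836 by DESeq2 and 797 and 447 by limma voom. Relative to CD44Neg, these numbers were 269 and 182 by edgeR, 262 and 567 by DESeq2 and 459 and 270 by limma voom. In CD44High, the same 7 of the 10 (Cdh5, Cldn5, Esam, F11r, Ocln, Pecam1 and Tjp1) were called lower against each other population. The background of these comparisons was 3.01% against CD44LowKitPos (2.23% lower), 16% against CD44LowKitNeg (8.17% lower) and 14.4% against CD44Neg (7.25% lower). Against CD44LowKitPos, 101 of all genes were higher and 289 lower in CD44High by edgeR, but 361 and 124 by limma voom and 141 and 63 with only both populations in the fit. Against CD44Neg they were 925 and 939 by edgeR, 859 and 1394 by DESeq2 and 1123 and 678 by limma voom. In fits of only the 2 populations compared, 0 of the 10 were called between CD44LowKitPos and CD44LowKitNeg, beside 0.128% of 11757 genes, and 3 were called lower in CD44High than in CD44LowKitPos (Cdh5, Cldn5 and Ocln), beside 1.86% of 10944 genes called and 0.576% called lower. The share of counts on Rn45s, a ribosomal RNA gene, was 16.6% to 23.9% in CD44High and 6.82% to 9.26% in CD44LowKitPos, without overlap, and 7.29% to 19.2% in CD44LowKitNeg and 1.92% to 19.3% in CD44Neg. With Rn45s left out of the counts, the same junction genes were called in each of these comparisons. The median log2 fold change of the 10 was 0.35 for CD44LowKitNeg against CD44Neg, where that of all genes was 0.0050, and −2.19 for CD44LowKitPos against CD44LowKitNeg, where that of all genes was −0.021. It was −3.92, −5.94 and −5.49 for CD44High against CD44LowKitPos, CD44LowKitNeg and CD44Neg. With Cdh5, which had no count in CD44High, set to its bound, the medians are the same, since Cdh5 stays far below the middle of the 10. These comparisons share libraries and are not independent of each other.

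**Figure D1:**
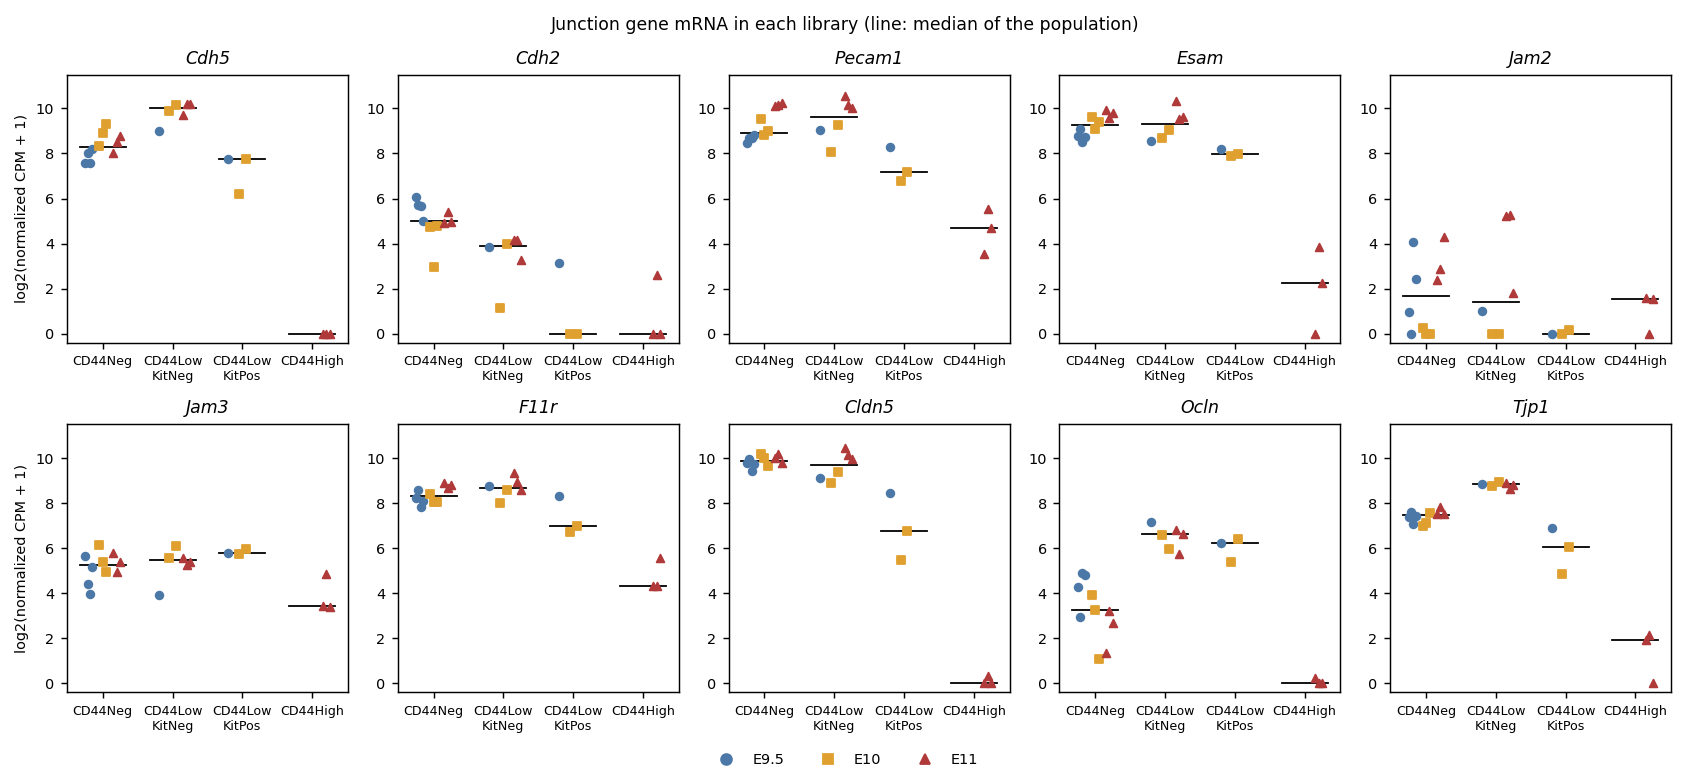
Levels of the 10 junction genes in each of the 22 libraries as log2(normalized CPM + 1), by population, with E9.5, E10 and E11 marked by circles, squares and triangles and the median of each population as a line. Ocln and Tjp1 are above all CD44Neg libraries in the 6 CD44LowKitNeg libraries, and Cdh5 is at 0 in the 3 CD44High libraries.

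The Cdh5 and Cldn5 genes are well known targets of ETS transcription factors such as ERG, which read a GGAA core. Promoter windows running from 250 bases before to 50 bases after the transcription start were found in the RefSeq table for 4 of the 10 genes, Tjp1, Ocln, F11r and Cldn5. They are shown because Tjp1 and Ocln were called higher in CD44LowKitNeg cells than in CD44Neg cells, whereas F11r and Cldn5 were not. No window was matched by symbol for Cdh5, Cdh2, Pecam1, Esam, Jam2 and Jam3. The windows are on build GRCm38.p6, at chr7:65371195-65371494 on the minus strand (Tjp1), chr13:100552669-100552968 on the minus strand (the first of 2 starts of Ocln), chr1:171437311-171437610 on the plus strand (F11r) and chr16:18776597-18776896 on the plus strand (Cldn5). The window of Tjp1 lies inside the gene as placed below, at a start within it and not at its outer end. Which start these cells used was not tested. Capitals mark GGAA and, where the core lies on the other strand, its complement TTCC.
Tjp1: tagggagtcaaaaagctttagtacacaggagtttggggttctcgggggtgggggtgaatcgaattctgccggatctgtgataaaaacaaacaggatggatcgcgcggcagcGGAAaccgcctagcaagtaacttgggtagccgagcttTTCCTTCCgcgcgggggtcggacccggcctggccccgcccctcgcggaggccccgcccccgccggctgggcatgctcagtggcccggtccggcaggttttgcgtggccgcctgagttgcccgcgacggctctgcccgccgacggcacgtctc
Ocln: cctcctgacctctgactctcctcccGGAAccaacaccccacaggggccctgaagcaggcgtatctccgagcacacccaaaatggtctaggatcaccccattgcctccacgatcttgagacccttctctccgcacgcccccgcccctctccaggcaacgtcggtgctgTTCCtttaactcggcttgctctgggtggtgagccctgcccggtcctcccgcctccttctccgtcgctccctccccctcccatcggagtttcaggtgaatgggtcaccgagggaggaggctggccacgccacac
F11r: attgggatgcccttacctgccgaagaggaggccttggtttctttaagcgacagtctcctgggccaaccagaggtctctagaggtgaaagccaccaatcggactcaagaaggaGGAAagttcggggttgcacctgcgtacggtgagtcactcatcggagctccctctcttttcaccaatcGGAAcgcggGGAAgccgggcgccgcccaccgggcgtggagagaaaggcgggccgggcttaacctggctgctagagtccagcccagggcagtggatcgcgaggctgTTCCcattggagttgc
Cldn5: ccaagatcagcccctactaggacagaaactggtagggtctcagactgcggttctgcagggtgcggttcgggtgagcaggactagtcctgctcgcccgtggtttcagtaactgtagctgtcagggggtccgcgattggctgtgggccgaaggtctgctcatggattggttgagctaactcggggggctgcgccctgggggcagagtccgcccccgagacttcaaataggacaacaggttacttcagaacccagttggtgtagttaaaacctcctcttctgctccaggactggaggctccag
The core was present 3 times in the window of Tjp1, 2 times in that of Ocln, 4 times in that of F11r and 0 times in that of Cldn5. It was present in 96.0% of the 32817 mouse promoter windows of the table, with a median of 3. The letters AGATAA, which GATA factors read, were in 11.2% of windows, and TAAACA, which forkhead factors read, in 13.4%. Both were searched on both strands and were in none of the 4 windows. CG pairs numbered 31 for Tjp1, 17 for Ocln, 19 for F11r and 12 for Cldn5, against a median of 7 over all windows. These matches describe the letters only.

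Cdh5 encodes the transmembrane protein that forms the adherens junction of endothelium (build GRCm38, chr8:104101625-104144511, plus strand). It was present at 187 to 639.9 normalized CPM (median 307) in CD44Neg and at 509.9 to 1158 (median 1036) in CD44LowKitNeg. The 3 CD44LowKitPos libraries had 73.5, 217 and 213 normalized CPM, and the 3 CD44High libraries had no count. All 6 CD44LowKitNeg libraries lay above the CD44Neg median, but the lowest of them, from E9.5, lay below the highest CD44Neg library, from E10. Within each stage the 2 populations did not overlap. At E9.5, the 1 CD44LowKitNeg library had 509.9 normalized CPM, which was 2.20 times the CD44Neg mean, and the ratio of the means was 2.15 at E10 and 2.96 at E11. The log2 fold change of Cdh5 between CD44LowKitNeg and CD44Neg was 1.48 (SE 0.24, 2.80-fold, edgeR adjusted p = 3.0e-04), and it was 1.62 (SE 0.22, adjusted p = 0.00295) in E11 libraries alone and 1.39 (SE 0.34, adjusted p = 0.0209) in E9.5 and E10 libraries alone.

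From CD44LowKitNeg to CD44LowKitPos, Cdh5 was lower by a log2 fold change of −2.51 (SE 0.43, edgeR adjusted p = 0.00109), and all 3 CD44LowKitPos libraries lay below all 6 CD44LowKitNeg libraries. The adjusted p was 0.0153 without CD44LowKitPos replicate 17, which had the lowest Cdh5 of the 3. It was 0.0803 in the 3 E9.5 and E10 libraries of each population alone, where the log2 fold change was −2.41 and none of 11059 genes was called. Against CD44Neg, the log2 fold change of CD44LowKitPos was −1.03 (SE 0.37, adjusted p = 0.0998) and the libraries overlapped. With no count in CD44High, Cdh5 was at least 205-fold lower there than in CD44LowKitPos, at least 1171-fold lower than in CD44LowKitNeg and at least 421-fold lower than in CD44Neg, taking the largest limit of 3 counts per library (0.816 normalized CPM). The CD44High cells were sorted as VE-Cadherin-positive.

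Cdh2 encodes N-cadherin, which endothelial cells also carry and which joins neural and mesenchymal cells (GRCm38, chr18:16588877-16809246, minus strand). It had 6.71 to 66.0 normalized CPM in CD44Neg (median 30.7) and 1.17 to 16.8 in CD44LowKitNeg (median 14.1). In CD44LowKitPos it had 0, 0 and 7.69 normalized CPM, the last in the E9.5 library, and in CD44High 0, 5.06 and 0. All 6 CD44LowKitNeg libraries lay below the CD44Neg median. The log2 fold change between CD44LowKitNeg and CD44Neg was −1.57 (SE 0.47, edgeR adjusted p = 0.0230), which missed the threshold, and without CD44Neg replicate 9, the lowest of the 10 libraries, it was −1.67 with an adjusted p of 0.0095. The DESeq2 Wald test called it with all libraries kept (−1.51, adjusted p = 0.00671). Of 6 neural markers, Nes had 29.9 to 117 normalized CPM in CD44Neg and 6.86 to 22.8 in CD44LowKitNeg, while the medians of Sox2, Pax6, Tubb3, Elavl3 and Sox10 were 0 in both. The part of Nes-positive cells in the Cdh2 values was not tested. The other comparisons of Cdh2 were not called by edgeR, but 4 of them were when 1 library was left out. Without CD44LowKitPos replicate 19, the adjusted p was 0.00463 against CD44LowKitNeg and 0.00135 against CD44Neg. Without CD44High replicate 21, it was 0.00846 and 0.00271 against the same populations. With all libraries kept, DESeq2 and limma voom called Cdh2 lower than in CD44Neg in CD44LowKitPos (adjusted p = 0.00362 and 0.00573) and in CD44High (2.9e-04 and 0.00395).

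Levels of different genes were compared per kilobase of exon. Of the summed level of Cdh5 and Cdh2 per kilobase, Cdh2 made up 9.36% ± 6.57 (SD, n = 10) in CD44Neg and 1.09% ± 0.702 (SD, n = 6) in CD44LowKitNeg. This share combined the higher Cdh5 and the lower Cdh2 of CD44LowKitNeg, and was 0% in 2 of the 3 CD44LowKitPos libraries.

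Pecam1 encodes CD31, which binds itself between cells at endothelial borders and is also carried by blood cells (GRCm38, chr11:106654217-106750628, minus strand). It was at 349 to 1211 normalized CPM in CD44Neg (median 481) and at 265 to 1504 in CD44LowKitNeg (median 821), and the 2 populations overlapped (log2 fold change 0.33, SE 0.34, edgeR adjusted p = 0.552). CD44LowKitPos had 109 and 145 normalized CPM at E10 and 310.1 at E9.5, and CD44High had 10.5, 45.8 and 24.8. Pecam1 thus remained detected in all CD44High libraries, with 53 to 172 counts. Against CD44LowKitNeg, the log2 fold change of CD44LowKitPos was −2.16 (SE 0.56, adjusted p = 0.0138) and was not called by edgeR, but was called by DESeq2 (1.2e-04) and limma voom (0.00643). The lowest CD44LowKitNeg library, replicate 15 from E10, had 265 normalized CPM and fell below the E9.5 CD44LowKitPos library, and without it the log2 fold change was −2.42 with an adjusted p of 0.00633. Without CD44LowKitPos replicate 19, the adjusted p was 0.00959. Against CD44Neg, the log2 fold change of CD44LowKitPos was −1.84 (SE 0.53, adjusted p = 0.0339), not called by edgeR but by DESeq2 (0.00128).

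From CD44LowKitPos to CD44High, Pecam1 was lower by a log2 fold change of −2.81 (SE 0.63, edgeR adjusted p = 0.00637) with no overlap. This call was lost by limma voom (adjusted p = 0.147), with only both populations in the fit (0.0245), and without CD44LowKitPos replicate 19 (0.0452), CD44High replicate 20 (0.0346) or CD44High replicate 22 (0.0329). Against CD44LowKitNeg and CD44Neg, the log2 fold changes of CD44High were −4.97 (SE 0.67, adjusted p = 6.5e-06) and −4.65 (SE 0.65, adjusted p = 8.3e-06).

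Esam encodes an endothelial adhesion molecule that binds itself at tight junctions (GRCm38, chr9:37528078-37538319, plus strand). It was at 360 to 959.5 normalized CPM in CD44Neg (median 609) and at 372 to 1270.3 in CD44LowKitNeg (median 636), with overlapping libraries (log2 fold change 0.12, SE 0.26, edgeR adjusted p = 0.805). This small difference turned to −0.17 with stage as a covariate. In CD44LowKitPos, Esam lay at 234, 251 and 288 normalized CPM, below all CD44LowKitNeg and all CD44Neg libraries. The fit of 22 libraries called neither difference (log2 fold change −1.41, SE 0.56, adjusted p = 0.101 against CD44LowKitNeg, and −1.30, SE 0.53, adjusted p = 0.155 against CD44Neg). The latter was called with only both populations in the fit (adjusted p = 0.00620). CD44High had 0, 13.6 and 3.81 normalized CPM, and the log2 fold change against CD44LowKitPos was −5.50 (SE 0.76, adjusted p = 3.2e-05). This call was lost by limma voom (adjusted p = 0.0125) and with only both populations in the fit (0.0164).

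F11r encodes JAM-A, a tight junction adhesion molecule of endothelium, epithelium and blood cells (GRCm38, chr1:171437535-171464603, plus strand). It had 230 to 470.2 normalized CPM in CD44Neg (median 316), 260.0 to 650.3 in CD44LowKitNeg (median 411), 104, 126 and 319.8 in CD44LowKitPos and 18.8, 19.2 and 45.7 in CD44High. The 2 endothelial populations overlapped (log2 fold change 0.38, SE 0.19, edgeR adjusted p = 0.185). Of the 3 CD44LowKitPos libraries, the one from E9.5 lay within the range of CD44LowKitNeg and the others lay below it (log2 fold change −1.25, SE 0.36, adjusted p = 0.0256, and 0.00145 by DESeq2 and 0.00289 by limma voom). Without that library, replicate 19, the difference was −1.95 with an adjusted p of 0.00200. Between CD44LowKitPos and CD44Neg the log2 fold change was −0.88 (SE 0.34, adjusted p = 0.1248), and −1.56 without CD44LowKitPos replicate 19 (0.00714). CD44High was lower than CD44LowKitPos (log2 fold change −2.72, SE 0.43, adjusted p = 1.6e-04), a call that was lost with only both populations in the fit (0.0203).

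Jam3 encodes JAM-C, a partner of JAM-B (GRCm38, chr9:27097384-27155421, minus strand). It was at 14.5 to 70.0 normalized CPM in CD44Neg, 14.0 to 68.2 in CD44LowKitNeg, 52.1, 61.2 and 54.7 in CD44LowKitPos and 9.90, 28.2 and 9.52 in CD44High. Jam3 was the only one of the 10 genes whose mean was higher in CD44LowKitPos than in CD44LowKitNeg, with a log2 fold change of 0.41 (SE 0.45, edgeR adjusted p = 0.610). Against CD44Neg it was 0.54 (SE 0.41, adjusted p = 0.523). The libraries overlapped, and no comparison of Jam3 was called by edgeR. Against CD44LowKitPos, all 3 CD44High libraries were lower (log2 fold change −1.82, SE 0.55, adjusted p = 0.0491). Against CD44LowKitNeg, CD44High differed by −1.41 (adjusted p = 0.0369, and 0.00961 by DESeq2), and by −2.21 (adjusted p = 0.00794) without CD44High replicate 21. An antisense gene, Gm48796, overlaps the exons of Jam3 by 1159 bases, and since the strand setting of the counting is not given in the sources used here, reads of both cannot be told apart.

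Jam2 encodes JAM-B, known for the borders of venous and lymphatic endothelium (GRCm38, chr16:84774123-84825928, plus strand), and was sparse. It had 0 to 18.7 normalized CPM in CD44Neg with 3 of 10 libraries at 0, and 0 to 37.6 in CD44LowKitNeg with 2 of 6 at 0. CD44LowKitPos had 1 count in all 3 libraries together, and CD44High had 1.98, 0 and 1.90 normalized CPM. No comparison was called by edgeR, while DESeq2 called Jam2 lower in CD44LowKitPos than in CD44LowKitNeg (adjusted p = 0.00352). In CD44LowKitNeg, the 3 E11 libraries had 36.6, 37.6 and 2.48 normalized CPM against 1.04, 0 and 0 at the earlier stages, so that all E11 libraries lay above all earlier ones (log2 fold change 6.06, SE 2.20, edgeR adjusted p = 0.120, and 0.00659 by DESeq2). Leaving out 1 library gave 5.52 to 10.2, the highest without CD44LowKitNeg replicate 14, after which all earlier libraries are at 0.

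Per kilobase of exon, F11r was the most abundant JAM gene in both endothelial populations. It made up 86.6% ± 4.43 (SD, n = 10) of the summed JAM level in CD44Neg and 87.4% ± 5.64 (SD, n = 6) in CD44LowKitNeg. In CD44LowKitPos, its share was 60.6%, 61.2% and 81.8%, the last at E9.5, and in CD44High 57.9%, 34.4% and 77.7%. Jam3 held most of the rest, with 12.8% ± 4.81 in CD44Neg, 11.8% ± 6.09 in CD44LowKitNeg, 32.1% ± 12.1 (SD, n = 3) in CD44LowKitPos and 42.0% ± 22.4 (SD, n = 3) in CD44High. The shares of the 2 E10 CD44LowKitPos libraries were outside the range of both endothelial populations, and that of the E9.5 library was within it. These shares carry the uncertainty of Jam3 and were not tested.

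**Figure D2:**
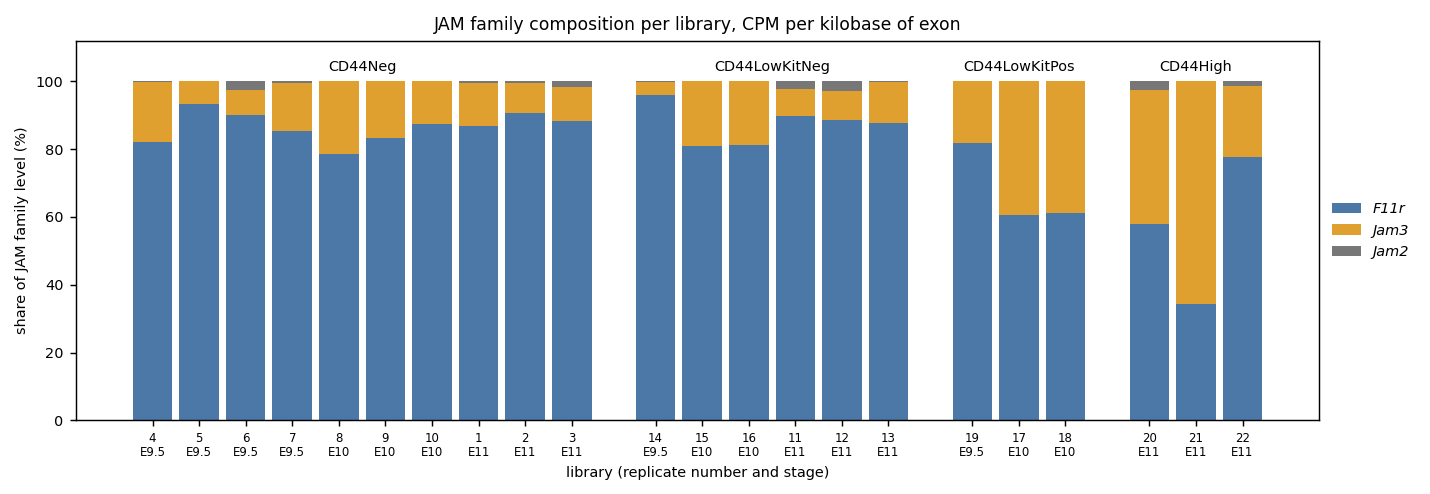
Share of F11r, Jam3 and Jam2 in the summed JAM family level (CPM per kilobase of exon, in percent) for each of the 22 libraries, ordered by population and stage. F11r takes 78.6% to 95.9% in the endothelial libraries and 34.4% to 81.8% in CD44LowKitPos and CD44High.

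Cldn5 encodes claudin-5, the main sealing protein of endothelial tight junctions (GRCm38, chr16:18776847-18778262, plus strand). Per kilobase of exon it was the most abundant of the 10 genes in CD44Neg (667 ± 108 CPM per kilobase, SD, n = 10) and in CD44LowKitNeg (615 ± 259.8, SD, n = 6). It was at 689 to 1158 normalized CPM in CD44Neg (median 936) and at 469.7 to 1413.5 in CD44LowKitNeg (median 837). The wide range of CD44LowKitNeg followed stage, with 552, 469.7 and 670.1 normalized CPM at E9.5 and E10 and 1413.5, 1119 and 1004 at E11. At E9.5 and at E10, every CD44LowKitNeg library lay below every CD44Neg library of the same stage, and at E11 the populations overlapped. The log2 fold change over all stages was −0.11 (SE 0.20, edgeR adjusted p = 0.776), that of E9.5 and E10 alone −0.66 (SE 0.18, adjusted p = 0.0347) and that of E11 alone 0.28 (SE 0.17, adjusted p = 0.352). None of these was called.

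CD44LowKitPos libraries had 43.4 and 108.7 normalized CPM of Cldn5 at E10 and 350.7 at E9.5, below all endothelial libraries. The log2 fold change was −2.38 (SE 0.46, edgeR adjusted p = 0.00260) against CD44LowKitNeg and −2.49 (SE 0.45, adjusted p = 0.00107) against CD44Neg. The call against CD44LowKitNeg was lost without CD44LowKitPos replicate 17 (adjusted p = 0.0190) or replicate 18 (0.0197), and that against CD44Neg without replicate 18 (0.0168). The E9.5 library was also the CD44LowKitPos library with the highest summed endothelial markers (1226 normalized CPM) and the lowest summed blood markers (446). CD44High held 1 count of Cldn5 in 3 libraries, and CD44LowKitPos was 2092 times higher than that pooled level, with a 95% exact Poisson interval of 376 to 82639 that covers counting error only.

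Ocln encodes occludin, a second membrane protein of the tight junction strand (GRCm38, chr13:100496507-100552718, minus strand). It was at 1.12 to 29.2 normalized CPM in CD44Neg (median 8.43) and at 51.9 to 142 in CD44LowKitNeg (median 97.1), with no overlap between the populations. CD44LowKitPos kept a similar level, with 41.1, 84.2 and 74.9 normalized CPM, and all 3 of these libraries were above all 10 CD44Neg libraries. The 3 CD44High libraries together had 1 count, and the CD44LowKitPos level was 833 times the pooled level there (95% exact Poisson interval of 150 to 32904). Between CD44LowKitNeg and CD44Neg, the log2 fold change was 2.95 (SE 0.50, 7.74-fold, edgeR adjusted p = 3.5e-04), the largest of the 10 genes. It was 4.12 (SE 0.59, adjusted p = 0.00344) at E11 alone and 2.74 (SE 0.60, adjusted p = 0.0124) at E9.5 and E10 alone. Between CD44LowKitPos and CD44Neg it was 2.46 (SE 0.55, adjusted p = 0.00612), but in 10 of 23 alternatives the adjusted p passed 0.01. Those without CD44Neg replicate 2, 3, 5, 8 or 9 gave 0.0111, 0.0107, 0.0117, 0.01004 and 0.0105, and those without CD44LowKitPos replicate 17, 18 or 19 gave 0.0124, 0.0531 and 0.0171. Between CD44LowKitPos and CD44LowKitNeg it was −0.49 (SE 0.67, adjusted p = 0.697), which does not show that the levels were equal. The summed level of 5 epithelial markers was 0 to 33.5 normalized CPM in CD44Neg, 26.5 to 87.2 in CD44LowKitNeg, 64.5 to 74.2 in CD44LowKitPos and 4.35 to 22.0 in CD44High. In CD44LowKitNeg and CD44LowKitPos most of it was Krt18 (24.1 to 87.2 and 63.3 to 74.2). In CD44LowKitNeg, Epcam had no count, the medians of Cdh1 and Krt19 were 0 and that of Krt8 was 2.76. The part of these markers in the Ocln values was not tested.

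Per kilobase of exon, Ocln made up 0.461% ± 0.451 (SD, n = 10) of the summed Cldn5 and Ocln level in CD44Neg, 4.11% ± 2.49 (SD, n = 6) in CD44LowKitNeg and 17.1% ± 9.21 (SD, n = 3) in CD44LowKitPos. The first step combined the higher Ocln and the second the lower Cldn5. Cldn5 was the more abundant of the pair in every library of these 3 populations.

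Tjp1 encodes ZO-1, which ties claudins, occludin and JAM proteins to actin and is also found at adherens junctions (GRCm38, chr7:65296165-65527781, minus strand). It was at 126 to 229.6 normalized CPM in CD44Neg (mean 171 ± 31.6, SD, n = 10) and at 396 to 484 in CD44LowKitNeg (mean 450.9 ± 31.4, SD, n = 6). The lowest CD44LowKitNeg library was above the highest CD44Neg library, and this held within each stage, with ratios of the means of 2.76 (E9.5), 3.07 (E10) and 2.23 (E11). The log2 fold change was 1.40 (SE 0.14, 2.65-fold, edgeR adjusted p = 2.2e-06), and the call was kept in all 27 alternative fits. In CD44LowKitPos, Tjp1 fell to 27.9, 65.6 and 118 normalized CPM, below all CD44LowKitNeg and all CD44Neg libraries. The log2 fold change was −2.68 (SE 0.44, adjusted p = 6.8e-04) against CD44LowKitNeg and −1.28 (SE 0.39, adjusted p = 0.0433) against CD44Neg, where it was not called by edgeR but was by DESeq2 (3.0e-04) and limma voom (0.00143). Without CD44LowKitPos replicate 19, the latter was −1.87 with an adjusted p of 0.00810. In the E9.5 and E10 libraries alone, the difference of Tjp1 between CD44LowKitPos and CD44LowKitNeg was −2.76 with an adjusted p of 0.0592. CD44High had 2.77, 3.46 and 0 normalized CPM, lower than CD44LowKitPos (log2 fold change −5.04, SE 0.56, adjusted p = 1.7e-06, and 0.0188 with only both populations in the fit).

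**Figure D3:**
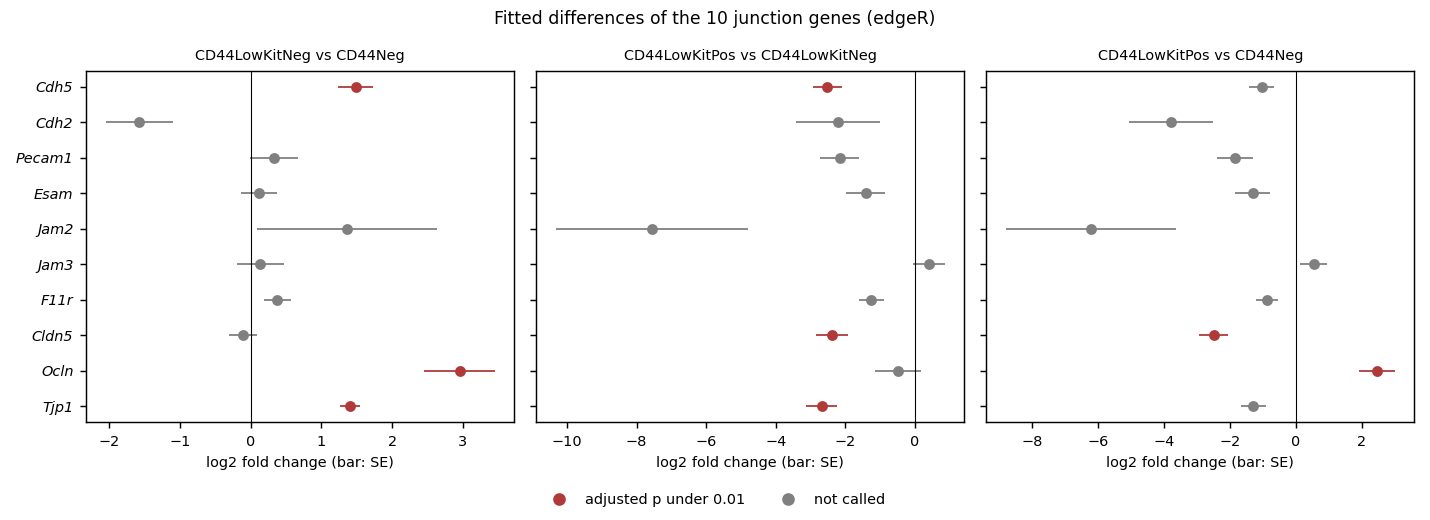
Log2 fold change of each of the 10 junction genes with its standard error in 3 comparisons, with genes called at an adjusted p under 0.01 in red. Ocln, Cdh5 and Tjp1 are to the right of 0 for CD44LowKitNeg against CD44Neg, and the value of Jam2 in CD44LowKitPos rests on 1 count.

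The level kept in CD44LowKitPos differed from gene to gene. As a percentage of the CD44LowKitNeg mean, Tjp1 was at 15.6%, Cdh5 at 17.5%, Cldn5 at 19.2%, Pecam1 at 22.3%, Esam at 37.6%, F11r at 42.1%, Ocln at 71.2% and Jam3 at 133%. Cdh2 and Jam2, which had few counts, were at 21.5% and 0.343%. In CD44High, the same percentages were 37.7% for Jam3, 6.42% for F11r, 3.20% for Pecam1, 0.846% for Esam and 0.461% for Tjp1. Cdh2 and Jam2, again with few counts, were at 14.2% and 9.99%, Ocln at 0.0704%, Cldn5 at 0.0102% and Cdh5 at 0%. Differences between the genes were not tested. The summed level of the 10 genes per kilobase was 1445 ± 297 CPM per kilobase in CD44Neg, 1711 ± 607 in CD44LowKitNeg, 472 ± 226 in CD44LowKitPos and 29.8 ± 13.2 in CD44High (SD). Cldn5 led in both endothelial populations, Esam in CD44LowKitPos (138 ± 14.98 CPM per kilobase, with Cldn5 at 118 ± 114) and F11r in CD44High (11.1 ± 6.13, with Jam3 at 8.18 ± 5.51). Whether the genes of the leading pairs in CD44LowKitPos and CD44High differed was not tested.

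CD44High could be compared with CD44LowKitNeg and CD44Neg at E11 alone, but not with CD44LowKitPos, which has no E11 library. Against the 3 E11 CD44LowKitNeg libraries, the log2 fold change was −7.49 (SE 1.16, edgeR adjusted p = 0.00319) for Esam, −4.33 (SE 0.45, adjusted p = 5.9e-04) for F11r, −5.64 (SE 0.56, adjusted p = 5.0e-04) for Pecam1 and −7.80 (SE 0.82, adjusted p = 6.0e-04) for Tjp1. Cdh5, Cldn5 and Ocln were also called lower, and Jam3 (−1.5, SE 0.57, adjusted p = 0.0917), Jam2 and Cdh2 were not. The background at this stage was 10.3% of 11245 genes called and 5.56% called lower.

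Stage was compared within the endothelial populations. In CD44Neg, Esam and Pecam1 were called higher at E11 than at E9.5, 2 of the 10 genes beside 0.684% of 11250 genes called and 0.391% called higher. Pecam1 rose from 349, 415, 411 and 445 normalized CPM at E9.5 to 1096, 1121 and 1211 at E11 (log2 fold change 1.52, SE 0.16, edgeR adjusted p = 3.8e-04), with E10 between them at 740.1, 451 and 511. Esam rose from 432, 545, 359.9 and 419 to 959.5, 752 and 874 (log2 fold change 0.99, SE 0.17, adjusted p = 0.00760). E9.5 and E11 did not overlap for either gene, while the E10 libraries of Esam, at 792, 542 and 673, overlapped both. The 6 endothelial markers summed to 2618 to 3380 at E9.5 and 3679 to 4175 at E11. The sums of 3 marker lists of other cells were lower at E11 without overlap, with 8 mesenchymal and mural markers at 27.5 to 126 normalized CPM at E9.5 and 0.465 to 17.5 at E11, 6 neural markers at 55.96 to 80.2 and 30.5 to 43.8, and 5 epithelial markers at 3.73 to 33.5 and 0 to 1.95. Over the CD44Neg libraries, the neural sum was almost all Nes and the epithelial sum mostly Krt18. The medians of the other genes of these 2 lists were 0, so the sums do not show neural or epithelial cells. The Rn45s share was 1.92% to 13.8% at E9.5 and 15.2% to 17.9% at E11, and Pecam1 and Esam were also called with Rn45s left out. The part of these markers in the stage differences was not tested. The call of Pecam1 was kept in all 14 alternatives, among them the looser threshold of 0.05, which cannot lose a call. That of Esam was lost without CD44Neg replicate 1, 2, 3, 4, 6 or 7, where the adjusted p was 0.0468, 0.0219, 0.0435, 0.0294, 0.0139 and 0.0294. Cldn5 differed by 0.27 (SE 0.16, adjusted p = 0.446), F11r by 0.60 (SE 0.18, adjusted p = 0.0843) and Tjp1 by 0.27 (SE 0.20, adjusted p = 0.572). Cdh5 (0.64, SE 0.25, adjusted p = 0.195), Ocln (−1.95, SE 0.87, adjusted p = 0.261), Cdh2, Jam2 and Jam3 were not called either.

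In CD44LowKitNeg, 2 of the 10 genes were called higher at E11 than at E9.5 and E10 together, Cldn5 and Pecam1, beside 1.98% of 12093 genes called and 0.347% called higher. Pecam1 had 519, 265 and 607 normalized CPM at the earlier stages and 1504, 1134 and 1035 at E11 (log2 fold change 1.40, SE 0.28, edgeR adjusted p = 0.00548). Cldn5 differed by 1.07 (SE 0.20, adjusted p = 0.00444), and Esam by 1.09 (SE 0.27, adjusted p = 0.0216), which was called by DESeq2 (0.00106), by limma voom (0.00711) and with no filter (0.00888). No earlier library of Pecam1, Cldn5 or Esam reached an E11 library. The calls rested on 6 libraries. Without CD44LowKitNeg replicate 11, 14 or 15, the adjusted p of Cldn5 was 0.0241, 0.0201 and 0.0229 and that of Pecam1 was 0.0272, 0.0157 and 0.0200. Cdh5 (0.29, SE 0.39, adjusted p = 0.781), Ocln (−0.19, SE 0.71, adjusted p = 0.933) and Tjp1 (−0.066, SE 0.20, adjusted p = 0.916), the 3 genes called higher in CD44LowKitNeg than in CD44Neg, were not called between its stages, nor were F11r (0.52, SE 0.23, adjusted p = 0.221), Cdh2 and Jam3. The 8 blood markers summed to 83.9 to 263.6 normalized CPM in the 3 earlier CD44LowKitNeg libraries and to 4.49 to 16.1 in the 3 E11 libraries, and the 6 endothelial markers to 2382 to 2961 and 4509 to 5364. The mesenchymal and mural markers summed to 231 to 358 earlier and 191 to 222 at E11, 7 macrophage markers to 19.5 to 28.9 and 0 to 1.70, and 8 erythroid markers to 13.8 to 30.9 and 31.0 to 60.7, also without overlap. Rn45s took 7.29% to 11.1% of counts in the 3 earlier libraries and 17.4% to 19.2% in the 3 E11 libraries, and with it left out Cldn5 and Pecam1 were called as well. The part of these markers in the stage differences was not tested.

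Whether the difference between CD44LowKitNeg and CD44Neg depended on stage was tested as an interaction of population and E11. None of the 10 genes was called by edgeR (0.141% of 12093 genes were called), by DESeq2 or by limma voom, and 1 had an unadjusted p under 0.05 in edgeR. This was Cldn5, with a difference of 0.92 (SE 0.27, adjusted p = 0.162). The values of the others ranged from −0.38 (Tjp1) to 4.40 (Jam2, SE 2.51).

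**Figure D4:**
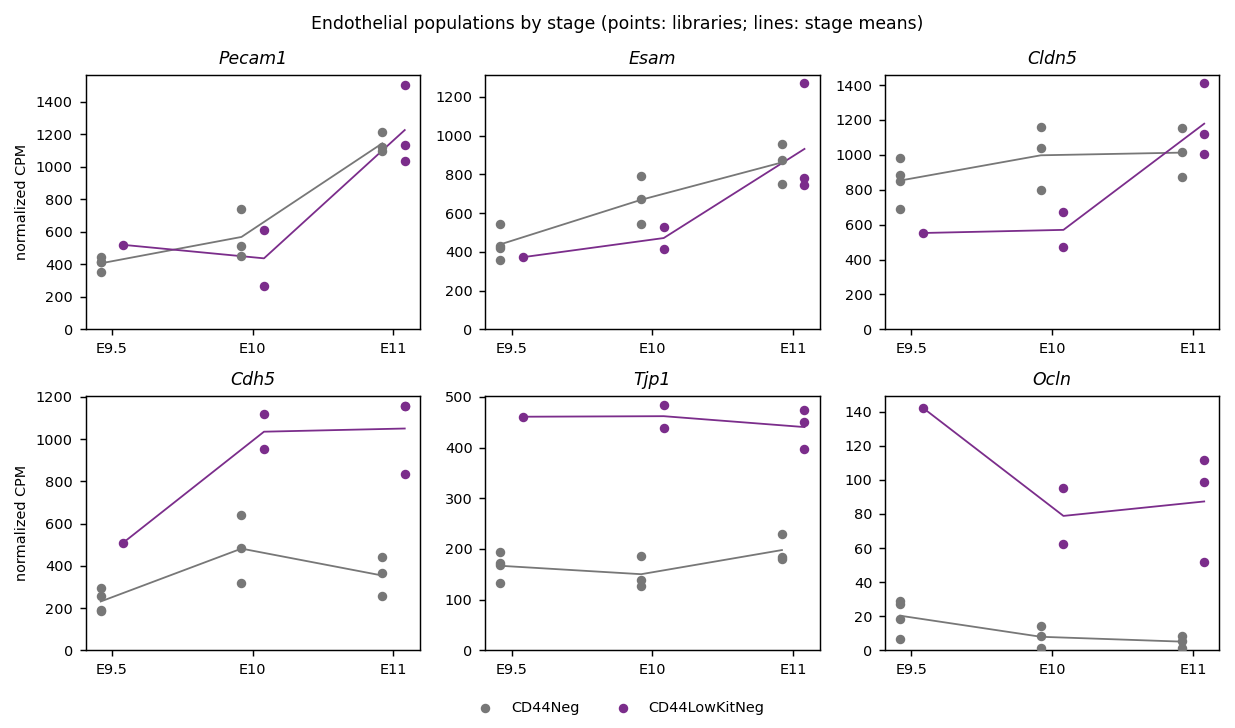
Normalized CPM of Pecam1, Esam, Cldn5, Cdh5, Tjp1 and Ocln by stage in CD44Neg (grey) and CD44LowKitNeg (purple), with each library as a point and stage means joined by lines. Pecam1 is at 1035 to 1504 in all E11 libraries and at 265 to 740.1 in all earlier ones, while Tjp1 and Ocln separate the populations at every stage.

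The intracellular partners of the adherens junction were read from a list of 10 genes in the table, 9 of which passed the filter. Of these, 2 were called higher and 1 lower in CD44LowKitNeg than in CD44Neg, with a median log2 fold change of 0.47, where 10.2% of all genes were called and their median was 0.0050. The number of partners called was 1 to 5 over the alternatives that left no library out. Ctnnb1, the gene of β-catenin, which binds the tail of VE-Cadherin, was at 617 ± 125 normalized CPM (SD, n = 10) in CD44Neg and 1589 ± 343 (SD, n = 6) in CD44LowKitNeg (log2 fold change 1.37, SE 0.15, edgeR adjusted p = 8.4e-06). Ptprb, the gene of the phosphatase VE-PTP that binds VE-Cadherin, rose from 147 ± 58.8 to 504 ± 315 (log2 fold change 1.79, SE 0.34, adjusted p = 8.7e-04). Ctnna1, the gene of α-catenin, which links β-catenin to actin, fell from 399 ± 81.9 to 252 ± 42.1 (log2 fold change −0.65, SE 0.16, adjusted p = 0.00704). Ctnnb1 and Ctnna1 thus moved in opposite directions between the endothelial populations. The catenin genes Ctnnd1 (95.3 ± 26.3 in CD44Neg and 131 ± 25.4 in CD44LowKitNeg) and Jup (175 ± 73.8 and 146 ± 106) were not called, with adjusted p of 0.0989 and 0.704.

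From CD44LowKitNeg to CD44LowKitPos, 6 of the 9 partners were called lower and 0 higher, beside 1.71% of all genes called lower, and their median was −1.81, where that of all genes was −0.021. Ptprb changed by −3.48 (SE 0.64, edgeR adjusted p = 0.00194), Mllt4, the older symbol of the afadin gene, by −2.64 (SE 0.61, adjusted p = 0.00737) and Jup, which encodes plakoglobin, by −2.57 (SE 0.60, adjusted p = 0.00737). This count was 0 to 7 over the alternatives that left no library out, and 0 in the E9.5 and E10 libraries alone. Vcl, the gene of vinculin, which strengthens the link to actin under tension, stood at 171 ± 40.2 normalized CPM in CD44LowKitNeg and 157 ± 26.3 in CD44LowKitPos. All 9 partners were called lower in CD44High than in CD44LowKitNeg, beside 8.17% of all genes, and Ptprb had no count in CD44High. Over the same alternatives, 6 to 9 were called.

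Of the tight junction partners, 19 were read in the table and 7 passed the filter of the endothelial fit, with a median log2 fold change of 0.13 where that of all genes was 0.0050. Cgnl1, the gene of paracingulin, was the only one called by edgeR, beside 10.2% of all genes. It was higher in CD44LowKitNeg (141 ± 23.5 normalized CPM, SD, n = 6) than in CD44Neg (80.5 ± 22.8, SD, n = 10), and its log2 fold change was 0.82 (SE 0.20, edgeR adjusted p = 0.00585). This count was 0 or 1 over the alternatives that left no library out. Of 12 tested between CD44LowKitPos and CD44LowKitNeg, 0 were called by edgeR and 0 or 1 by those alternatives. From CD44LowKitPos to CD44High, 1 was called, beside 3.01% of all genes, Cgnl1 (−5.07, SE 0.80, adjusted p = 1.6e-04).

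Among other cadherins and protocadherins, 12 were in the table and 5 were tested between the endothelial populations. Of these 5, edgeR called 2, both lower in CD44LowKitNeg, beside 10.2% of all genes. Over the alternatives that left no library out, 0 to 2 were called. Pcdh12 (VE-cadherin-2) was at 41.7 ± 16.03 normalized CPM in CD44Neg and 8.72 ± 5.23 in CD44LowKitNeg (log2 fold change −2.24, SE 0.45, edgeR adjusted p = 0.00154), and Pcdh17 at 89.3 ± 22.9 and 29.3 ± 16.97 (−1.60, SE 0.32, adjusted p = 0.00136). Both were lower where Cdh5 was higher. Pcdh1 was at 22.9 ± 11.6 in CD44LowKitNeg and at 0, 0 and 1.36 in the CD44LowKitPos libraries (−5.61, SE 1.06, adjusted p = 0.00197). Cdh11, a mesenchymal cadherin, was at 0.544 to 99.0 normalized CPM in CD44High and at most 2.87 in any other library, and 8 mesenchymal and mural markers summed to 0.272 to 1028 in CD44High. Their part in the level of Cdh11 was not tested.

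**Figure D5:**
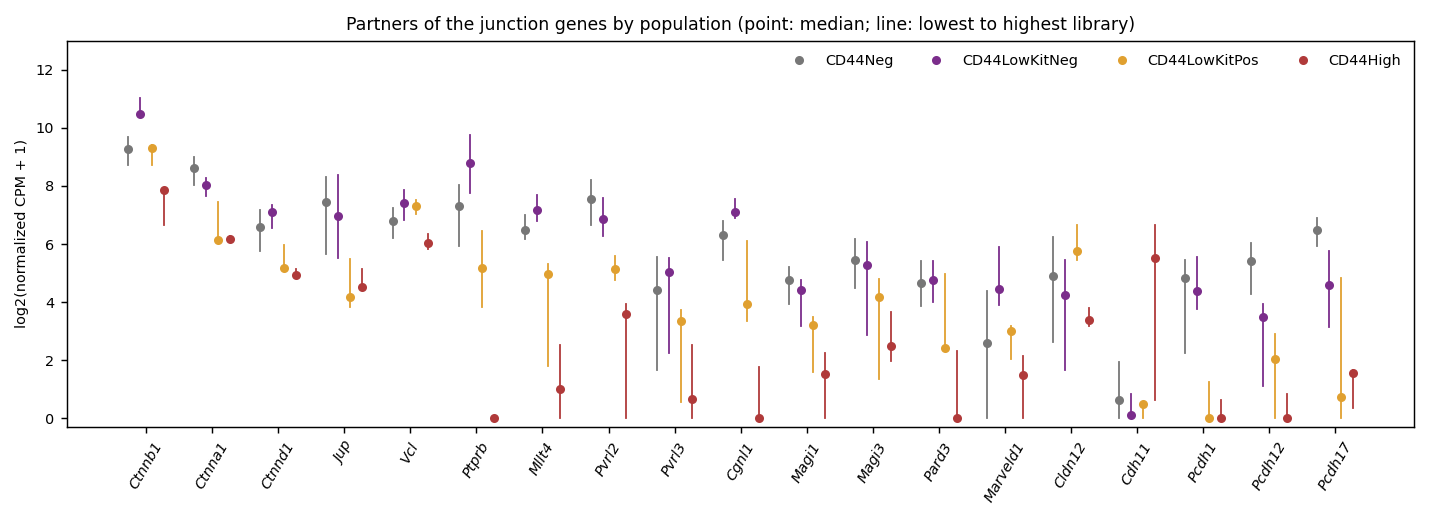
Levels of partner genes of the adherens and tight junctions and of other cadherins as log2(normalized CPM + 1), for genes whose mean reached 20 normalized CPM in at least 1 population, with the median as a point and the lowest to highest library as a line. Ctnnb1 and Ptprb are higher and Pcdh12 and Pcdh17 lower in CD44LowKitNeg than in CD44Neg.

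Factors known to act on the Cdh5 promoter were read as well. Of 8 ETS, TAL1 and GATA2 genes, 3 were called between the endothelial populations, beside 10.2% of all genes. This count was 0 to 4 over the alternatives that left no library out. Ets1 was at 331 ± 137 normalized CPM in CD44Neg and 95.1 ± 32.4 in CD44LowKitNeg (log2 fold change −1.79, SE 0.26, edgeR adjusted p = 9.2e-05), Ets2 at 166 ± 40.1 and 69.1 ± 35.3 (−1.26, SE 0.28, adjusted p = 0.00320), and Gata2 at 21.7 ± 10.2 and 65.7 ± 18.5 (1.60, SE 0.31, adjusted p = 0.00101). Of 4 tested genes of zinc-finger factors known to repress cadherins, 2 were called by edgeR, beside 10.2% of all genes, and 0 to 3 over the same alternatives. Snai1 was lower in CD44LowKitNeg (2.73 ± 2.56 against 30.5 ± 22.0, log2 fold change −3.46, SE 0.67, edgeR adjusted p = 0.00114), and Zeb2 was higher (62.1 ± 25.7 against 20.1 ± 10.7, log2 fold change 1.63, SE 0.36, adjusted p = 0.00327). Of 14 genes of other endothelial surface proteins, 13 were tested, and Tek, the gene of the angiopoietin receptor, was the only one called by edgeR (1.41, SE 0.17, adjusted p = 1.9e-05, higher in CD44LowKitNeg), a share not above the 10.2% of all genes.

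For each junction gene, the genes with the most similar pattern over the 22 libraries were found among 12949 genes by the root mean square difference of centred log2 CPM. Clec14a (0.58), Ramp2 (0.71) and Ptprb (0.81) were nearest to Cdh5, whose own standard deviation was 3.71 on this scale. Ecscr (0.62), Nid1 (0.65) and Tek (0.71) were nearest to Tjp1, and Kdr (0.60), S100a16 (0.71) and Sox18 (0.72) to Cldn5. Elk3 (0.50), Plxnd1 (0.58) and C130074G19Rik (0.59) were nearest to Pecam1, Tspan18 (0.51), Tie1 (0.60) and Plvap (0.60) to Esam, and S1pr1 (0.42), Egfl7 (0.49) and Ece1 (0.52) to F11r. The nearest genes of Ocln (Calcrl at 1.30, Serpinf1 at 1.37 and Ptgis at 1.38) were farther away, as were those of Jam2 (Mustn1 at 1.64, Wfdc1 at 1.72 and Cdc42ep3 at 1.72) and Cdh2 (Nid2 at 0.95, Fam13c at 1.002 and Akap12 at 1.08). For Jam3, they were Rnf44 (0.45), Mfng (0.48) and Akt1 (0.52), beside a standard deviation of Jam3 of 0.84. None of the nearest 3 of any gene was another of the 10.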

How the data were processed

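The study sorted 25 VE-Cadherin-positive cells per library from the AGM and amplified their RNA with SMART-Seq2 (14 cycles). After adaptor removal by FASTX, the authors aligned reads with RNA STAR and counted with htseq-count. The deposited values are raw counts per gene symbol, without normalization. The labels name build mm10, and the submitters' processing notes name FastQC and HTSeq. Versions, annotation and strand setting are not given in the sources used here. All 22 columns were matched to libraries by their labels.

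Counts were filtered with filterByExpr (minimum count of 10, minimum total of 15), scaled by TMM and tested with the quasi-likelihood test of edgeR 4.0.16 in R 4.3.3, with Benjamini-Hochberg adjustment over all genes and calls at an adjusted p under 0.01. CD44LowKitNeg was compared with CD44Neg over 16 libraries. The 5 other population comparisons came from 1 fit of 22 libraries, E11 against E9.5 from the 10 CD44Neg libraries, and the CD44LowKitNeg stages and the interaction from 16 libraries. SE were derived from the F statistic. Lengths (exon union), positions and overlaps came from GENCODE M21 (GRCm38), which may differ from the authors' annotation. Levels for nearest genes used a prior count of 2. Alternatives were DESeq2 1.42.0 (Wald test and size factors), limma 3.58.1 (voom), other filters and thresholds, stage as a covariate, stages alone, 2 populations in a fit and leaving out each library. The fits were also run on simulated counts with known changes and the same spread for all genes, which does not show their error rates in these data. Replicate libraries of a population and stage differed by a chi-square per degree of freedom of 17.0 to 85.2 over 20 pairs, so none was counted as a repeat.

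The members, gene lists and tests were chosen with earlier results of these data known. All 10 members are described. From each list, at most the 3 called genes with the largest change in a comparison are named, and Vcl and Ctnnd1 were chosen after their values were seen. For each member, the 3 nearest genes are named. A result for a further gene is not reported here. Summed markers of erythroid cells were 0 to 22.7 normalized CPM in CD44Neg, 13.8 to 60.7 in CD44LowKitNeg, 7.91 to 26.8 in CD44LowKitPos and 24.0 to 91.8 in CD44High, and those of megakaryocytes 2.45 to 16.1, 15.6 to 30.7, 38.0 to 194 and 78.4 to 262. Other marker sums are given with the results.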

Additional observations from a re-analysis of the deposited data

Results flagged for a closer look

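Cdh2 in CD44Neg replicate 9, an E10 library, had 6.71 normalized CPM, far below the other 9 CD44Neg libraries at 25.5 to 66.0. Cdh2 in CD44LowKitNeg replicate 15, also from E10, had 1.17 normalized CPM, far below the other 5 CD44LowKitNeg libraries at 8.52 to 16.8. Both libraries stood apart from their group by Dixon's ratio on log2(normalized CPM + 1). Over the 10 genes, 30 groups were tested in this way and 2 stood out, while chance marks about 1 in 20.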

How the results depend on the processing

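Tjp1 was called between CD44LowKitNeg and CD44Neg in all 27 alternatives, and Cdh5 and Ocln in 26 of 27. Calls against CD44LowKitPos rest on 3 libraries and depended most on the alternative. No paired analysis was possible because the replicate numbers in the labels run from 1 to 22 with none shared between groups. Where a setting changed a value, the cause was not tested.

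At an adjusted p under 0.05 in place of 0.01, the genes called numbered 2217 (CD44LowKitNeg against CD44Neg, 1121 at 0.01), 1619 (CD44LowKitPos against CD44LowKitNeg, 552), 941 (CD44LowKitPos against CD44Neg, 451), 784 (CD44High against CD44LowKitPos, 390), 3471 (CD44High against CD44LowKitNeg, 2067), 2917 (CD44High against CD44Neg, 1864), 656 (CD44LowKitNeg stages, 240), 40 (interaction, 17) and 352 (CD44Neg stages, 77). DESeq2 called 1746, 1265 (429 higher and 836 lower, against 330 and 222 with edgeR), 829 (262 and 567, against 269 and 182), 716, 636 (stages of CD44LowKitNeg), 109 (interaction) and 429 (stages of CD44Neg). The balance of higher and lower calls also moved for CD44LowKitPos against CD44LowKitNeg with DESeq2 size factors (218 and 273), for CD44High against CD44LowKitPos by voom (361 and 124) and in the fit of 2 populations (141 and 63, against 101 and 289 with edgeR), and for CD44High against CD44LowKitNeg by DESeq2 (1001 and 1664) and voom (1473 and 835, against 1009 and 1058), and for CD44High against CD44Neg by DESeq2 (859 and 1394) and voom (1123 and 678, against 925 and 939). Limma voom called 1244 and 729 in the comparisons of CD44LowKitPos with CD44LowKitNeg and CD44Neg, 433 and 172 between the stages of CD44LowKitNeg and CD44Neg, and 3 in the interaction. With no filter, 27 and 279 were called in the interaction and the CD44Neg stages. Stage as a covariate left 366 between CD44LowKitPos and CD44LowKitNeg. E11 alone gave 376 (CD44LowKitNeg against CD44Neg), 1160 and 1055 (CD44High against CD44LowKitNeg and CD44Neg), and E9.5 and E10 alone gave 304 and, for CD44LowKitPos against CD44LowKitNeg, 0. With 2 populations in the fit, 15 (CD44LowKitPos against CD44LowKitNeg), 204 and 1265 (CD44High against CD44LowKitPos and CD44LowKitNeg) were called. Of the 10 junction genes, CD44LowKitPos against CD44LowKitNeg had 5 called at 0.05, 6 by DESeq2, 5 by voom and 0 in E9.5 and E10 alone or in the fit of 2 populations. CD44LowKitPos against CD44Neg had 4, 5 and 4, and 1 in E9.5 and E10 alone. CD44LowKitNeg against CD44Neg had 1 in E9.5 and E10 alone, CD44High against CD44LowKitPos had 3 in the fit of 2 populations, and the CD44LowKitNeg stages had 4 by DESeq2.

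Leaving out each library in turn, the genes called ranged from 875 to 1222 (CD44LowKitNeg against CD44Neg), 65 to 687 (CD44LowKitPos against CD44LowKitNeg, lowest without CD44LowKitPos replicate 17, and 160 without replicate 18), 159 to 630 (CD44LowKitPos against CD44Neg), 251 to 392, 1334 to 2176 and 1340 to 1867 (CD44High against CD44LowKitPos, CD44LowKitNeg and CD44Neg), 91 to 182 (CD44LowKitNeg stages), 12 to 27 (interaction) and 8 to 75 (CD44Neg stages, lowest without CD44Neg replicate 1). The junction genes called ranged from 3 to 4, 1 to 6, 0 to 4, 6 to 7, 7 to 9, 7 to 8, 0 to 2, 0 to 0 and 1 to 2 in the same order.

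Only values that were not called reversed. Between CD44LowKitNeg and CD44Neg these were Esam (−0.17 with stage as a covariate, −0.25 in E9.5 and E10 alone, −0.15 to 0.27 with a library left out), Jam3 (−0.096 with stage as a covariate, −0.052 to 0.35) and Cldn5 (0.28 in E11 alone, −0.30 to 0.044). For CD44High against CD44LowKitPos they were Cdh2 (0.26 by voom, 0.0018 with stage as a covariate, −6.97 to 6.25) and Jam2 (−1.86 with stage as a covariate). Between the CD44LowKitNeg stages they were Jam3 (0.29 by voom, −0.47 to 0.45), Ocln (−0.43 to 0.16) and Tjp1 (−0.13 to 0.023), and between the CD44Neg stages Jam2 (−0.022 to 2.43). In the interaction they were Jam3 (0.056 by voom, −0.62 to 0.30), Cdh5 (−0.034 to 0.47), F11r (−0.30 to 0.11) and Pecam1 (−0.12 to 0.40). Pecam1 between CD44High and CD44LowKitPos was also lost by voom (adjusted p = 0.147), and Esam there (adjusted p = 0.0125). At 1 to 3 counts, as for Cldn5 and Ocln in CD44High, depth limits the fold.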
